A study of Mus musculus with 4 samples.

Results

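The genes described here mark or shape the blood and lymphatic vessels of the skin. They were chosen by name: 32 genes, of which 19 mark blood endothelium, 5 mark lymphatic endothelium and 8 encode secreted angiogenic factors or their neuropilin co-receptors. Flt4 was placed with the lymphatic genes. The arrays held 57 probes for them, 45 of which passed the filter on dim probes: both arrays of 1 pool or of both had to read the probe well above background. By its brightest such probe, each of 31 genes was measured, out of 17550 genes tested in all. Angpt1 had no such probe.

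Gene expression was measured on 4 one-colour arrays of full-thickness dorsal skin from male mice aged 42 days, labelled as telogen, when hair follicles rest. The group called cKO below was Fgf18 cKO on the C57BL/6 strain, in which Fgf18 was deleted in epithelium positive for keratin 5. The group called WT was C57BL/6. The labels do not name the Cre driver line, and they mention no allele or transgene in WT. For each group polyA RNA of 3 mice was pooled and the pool was hybridised to 2 arrays, so every SD, SE and p-value below measures the spread between duplicate arrays of 1 pool. The tests compare 2 pools, not 2 genotypes, as no array measured a single mouse.

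Blood vessels are lined by endothelial cells that carry receptors for vascular endothelial growth factors (Kdr, Flt1) and angiopoietins (Tek, with its relative Tie1). Lymphatic endothelium depends on Flt4, the receptor of Vegfc and Figf, and on the transcription factor Prox1. In skin, Vegfa is made largely by keratinocytes and the hair follicle, and the perifollicular vessels are known to expand while a follicle grows and to shrink as it rests.

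On each array between 62.1% and 69.1% of the 43379 non-control spots were well above background. The 75th percentile of the processed signal, on which each array was scaled, ran from 1271 to 1453. The arrays of one pool correlated across genes at 0.997 (cKO) and 0.996 (WT), where genes are not independent replicates. Fgf18 was 1.26-fold lower in cKO (log2 -0.33, limma adjusted p = 0.0035). The labels name no deleted exons, so this probe checks nothing. The keratin markers of the targeted epithelium, Krt5 and Krt14, had log2 values of -0.09 and 0.31. All 12 measured genes of a list of hair shaft and inner root sheath markers were called higher in cKO, although both pools are labelled telogen. Of these, 4 were well above background on neither WT array and passed the filter through cKO alone, so their changes are bounds. The median log2 change was 8.26 as fitted and 8.21 with those 4 at their bound. Their part in the vessel results was not tested.

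Probes that carry the results are shown first, because several genes were read by more than 1 probe and the probes did not always give the same size of change. Each line gives the first 30 of the 60 bases of a probe, from its 5′ end as the scanner files list it, all in lower case since no base is singled out. The lines are those of the 3 called genes and of Flt1 and the neuropilins.
Emcn: aacatgccgtagttgagtttagactttcca
Lyve1, brightest probe: cactttgtgtgcctttaacaaatacattat
Lyve1, other probe: cacccaaaactacggtgcgatgcttagaag
Vegfb, brightest probe: atgataactgtgacacacacacacactcac
Vegfb, other probe: tgcttttatggccctgcttcacagggagaa
Flt1, brightest probe: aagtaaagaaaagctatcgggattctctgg
Flt1, other probe: cctgtattattccgattttaataatctaat
Nrp2: tgagccagatcacgggaactcgagagcttt
Nrp1, brightest probe: ttgtggatggtgtaaagttgaaaaaagata
Nrp1, middle probe: atggtgtctggacttatttcagactcccag
Nrp1, 5′ probe: gtaaaccgtctgtgatcagtctgaagtatg

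On mm9, the build of the scanner files, the Emcn probe lies at chr3:137093811-137093870 and the brightest Lyve1 probe at chr7:117994171-117994230. The brightest Vegfb probe lies at chr19:7056962-7057019 and the Nrp2 probe at chr1:62865129-62865188. Exons and untranslated regions are not stated, for lack of an mm9 annotation among the files used.

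Most vessel genes were somewhat lower in the cKO pool. Of the 31 measured genes, 28 had a log2 change below 0, against 57% of all genes tested. Both cKO arrays lay below both WT arrays for 25 genes, a pattern that 48.1% of all genes tested showed, and above them for 3 (33.8% of all genes). The adjusted p was under 0.05 for 19 genes that were lower and 3 that were higher, where 33.6% and 22.2% of all genes were lower and higher at that threshold. Under alternative settings that kept all 4 arrays, the count of 19 ran from 13, without the filter on dim probes, to 21. It was lower than 19 whenever a single array was left out. A call needed in addition a change of at least 1.5-fold. By that rule 3 vessel genes fell, Emcn, Lyve1 and Vegfb, and none rose, against 4.81% and 5.68% of all genes tested. The median log2 change was -0.24 over the vessel genes and -0.05 over all genes tested. The vessel genes lay within a narrow band, from -0.79 (Emcn) to 0.51 (Nrp2). All 31 were well above background on all 4 arrays. In a whole-skin sample, fewer endothelial cells, less RNA per endothelial cell and more RNA from other cells cannot be told apart.

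**Figure D1:**
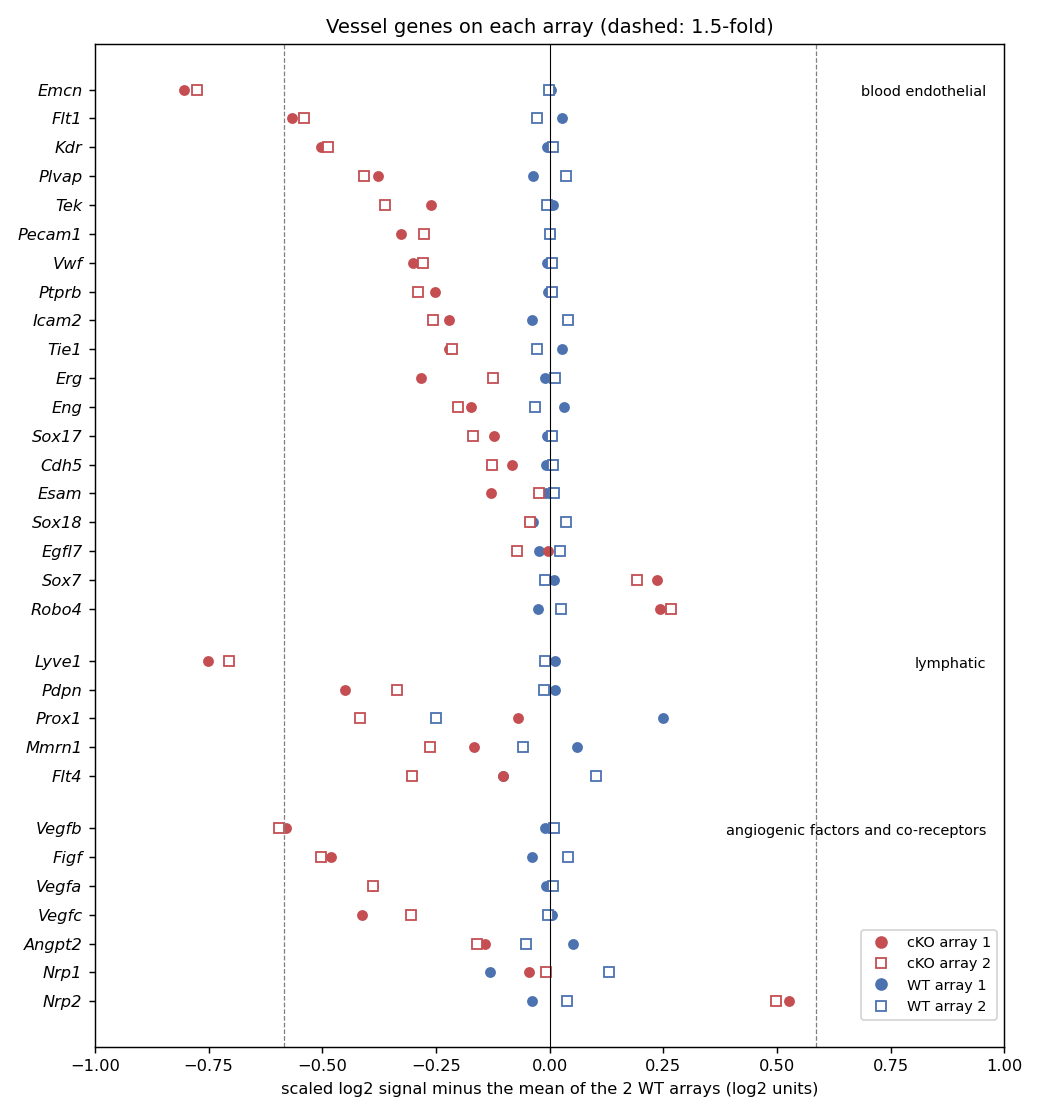
Scaled log2 signal of the 31 measured vessel genes on each array, as the difference from the mean of the 2 WT arrays (horizontal axis, log2 units), by list; red marks are cKO arrays, blue marks WT arrays, and dashed lines mark 1.5-fold. In Emcn and Lyve1 both cKO arrays lie beyond the lower line, whereas Nrp2, Robo4 and Sox7 lie on the higher side.

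Emcn, which encodes endomucin, a sialomucin of capillary and venous endothelium, had the largest change among the vessel genes. The cKO arrays gave scaled log2 signals of 1.20 and 1.22 and the WT arrays 2.002 and 1.998, from processed signals of 3214, 3394, 5093 and 5255 in the same order. The pools were separated by 0.77 between their nearest arrays, whereas duplicates differed by at most 0.027. Emcn fell 1.73-fold (log2 -0.79, SE 0.024, limma adjusted p = 0.0011). Only 2.42% of all genes tested had a change as low or lower.

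The receptors of vascular endothelial growth factors were lower as well, without reaching 1.5-fold. Kdr, the main signalling receptor for Vegfa, had scaled log2 signals of 0.008 and 0.024 in cKO and 0.50 and 0.52 in WT, so the groups did not overlap. Its change was -0.50 (SE 0.023, adjusted p = 0.0018), or 1.41-fold. Flt1, which binds Vegfa and Vegfb and acts in part as a decoy, gave 0.84 and 0.86 in cKO and 1.43 and 1.38 in WT. Its change was -0.55 (SE 0.032, adjusted p = 0.0024), or 1.47-fold. The other Flt1 probe, whose target lies next to that of the brightest, gave -0.66, and with the mean of both probes Flt1 was called lower at -0.61.

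The angiopoietin receptor Tek and its relative Tie1 were lower by smaller steps, with log2 changes of -0.31 (adjusted p = 0.012) and -0.22 (adjusted p = 0.011). Tek measured -0.65 and -0.75 in cKO against -0.39 and -0.40 in WT, and Tie1 -0.47 and -0.47 against -0.22 and -0.28. Ptprb, the vascular phosphatase that restrains Tek, was at -0.27 (adjusted p = 0.0054). In each of these 3 genes the gap between the nearest arrays of the pools exceeded the larger gap between duplicates. Eng, a co-receptor of the TGF-beta family on endothelium, was closer to WT at -0.19 (adjusted p = 0.022), with 0.94 and 0.92 in cKO and 1.15 and 1.08 in WT.

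Other junction, surface and secreted molecules of blood endothelium changed less than Emcn. Plvap, which forms the diaphragms of fenestrated capillaries, was at -0.39 (SE 0.037, adjusted p = 0.0052), with scaled log2 signals of 2.85 and 2.81 in cKO and 3.19 and 3.26 in WT. Pecam1, the adhesion molecule used most often to stain vessels, measured -1.55 and -1.498 in cKO and -1.22 and -1.22 in WT, a change of -0.30 (adjusted p = 0.0055). Vwf, the clotting factor stored in endothelial granules, was at -0.29 (adjusted p = 0.0041), and its second probe gave -0.29 too. Icam2, a leukocyte ligand on endothelium, was at -0.24 (adjusted p = 0.017).

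Cdh5, the cadherin of endothelial junctions, differed far less. Its scaled log2 signals were 0.19 and 0.14 in cKO and 0.26 and 0.28 in WT, a change of -0.10 (SE 0.028, adjusted p = 0.049). Its other probe gave -0.11. Esam, another junction molecule, was at -0.08 (adjusted p = 0.25), and its pools were 0.014 apart at the nearest arrays where cKO duplicates differed by 0.11. Egfl7, a secreted protein of endothelium, measured 3.72 and 3.65 in cKO and 3.70 and 3.75 in WT, so the pools overlapped at a change of -0.04 (adjusted p = 0.44). A p above the threshold does not show equal levels.

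Robo4, an endothelial guidance receptor that stabilises vessels, was higher in cKO. It measured 1.95 and 1.97 in cKO against 1.68 and 1.73 in WT, a change of 0.25 (SE 0.031, adjusted p = 0.0083), or 1.19-fold and not called. Its adjusted p was 0.050 without cKO replicate 1 and 0.055 without cKO replicate 2. Both cKO arrays lay above both WT arrays.

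The endothelial transcription factors moved little. Sox7 was higher by its brightest probe, at -0.36 and -0.41 in cKO and -0.59 and -0.61 in WT, a change of 0.21 (adjusted p = 0.010). With the mean of probes it was at 0.07 (adjusted p = 0.56), and its adjusted p was 0.057 without cKO replicate 1 and 0.051 without WT replicate 2. A dimmer Sox7 probe gave -0.07, the sole case among 14 further probes of the vessel genes in which the sign differed from that of the brightest probe. The related factor Sox17 was at -0.14 (adjusted p = 0.025) and Sox18 at -0.04 (adjusted p = 0.36). Erg, an ETS factor that maintains endothelial identity, had weak signals of 80.1, 92.7, 87.7 and 92.1 on the 2 cKO and 2 WT arrays. Its change was -0.20 (adjusted p = 0.072), and its cKO duplicates differed by 0.16, more than the 0.11 between the nearest arrays of the pools.

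Of the lymphatic genes, Lyve1, the hyaluronan receptor of lymphatic capillaries that some tissue macrophages also carry, was lower by the widest margin. Its processed signals were 832 and 891 in cKO and 1281 and 1305 in WT, or scaled log2 signals of -0.75, -0.71, 0.011 and -0.011. No cKO array came within 0.69 of a WT array, while duplicates differed by at most 0.047. Lyve1 fell 1.66-fold (log2 -0.73, SE 0.030, limma adjusted p = 0.0015). Its other probe measured -2.74 and -2.76 in cKO and -2.38 and -2.37 in WT. That is a change of -0.38 in the same direction and of smaller size, and with the mean of both probes Lyve1 missed the fold threshold at -0.55. Macrophage markers fixed as a list had a median of -0.13 over 12 measured genes, none of them called. In all 12 both cKO arrays lay below both WT arrays (48.1% of all genes tested). The limma adjusted p was under 0.05 for 7, all lower (33.6% of all genes tested). The summed scaled signal of the macrophage markers was 66.5 and 66.7 in cKO and 74.0 and 74.3 in WT. Their part in the Lyve1 result was not tested.

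Mmrn1, a secreted protein of lymphatic endothelium and platelets, was at -0.21 (adjusted p = 0.058), with -0.11 and -0.20 in cKO and 0.12 and 0.001 in WT. Pdpn, a surface glycoprotein of lymphatic endothelium also made by keratinocytes and fibroblasts, gave -4.04 and -3.92 in cKO and -3.57 and -3.60 in WT. Its change of -0.39 (SE 0.050, adjusted p = 0.0092) was matched by -0.44 from its other probe. Both Pdpn probes were dim, with processed signals of the brighter one between 85.4 and 109.

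Flt4 and Prox1 were dim, and their duplicates differed by more than the pools did at their nearest arrays. Flt4 gave processed signals of 59.7 and 53.9 in cKO and 54.1 and 64.6 in WT, a change of -0.20 (SE 0.11, adjusted p = 0.21). The measured Prox1 probe, named by a cDNA clone, gave 74.8 and 60.9 in cKO and 84.5 and 61.9 in WT. Its change was -0.24 (SE 0.23, adjusted p = 0.43), and both probes for the RefSeq transcript of Prox1 were not well above background on any array. All 5 lymphatic genes were below 0 in the main setting (57% of all genes tested), with a median of -0.24. Of the 5, 1 was called lower (4.81% of all genes tested). Flt4 was at 0.044 with normexp and quantile normalization, and Prox1 at 0.0068 without WT replicate 1. The median was -0.34 without cKO replicate 1, -0.17 without cKO replicate 2 and -0.41 without WT replicate 2.

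The 5 measured secreted ligands all had changes below 0, and 4 of them an adjusted p under 0.05. Of all genes tested, 57% lay below 0 and 33.6% were lower at that threshold. Vegfb, which binds Flt1 and has been linked to fatty acid uptake across endothelium, measured 0.97 and 0.96 in cKO and 1.54 and 1.56 in WT, from processed signals of 2753, 2824, 3707 and 3890. The arrays of the pools lay at least 0.57 apart. Vegfb fell 1.503-fold (log2 -0.59, SE 0.024, limma adjusted p = 0.0015), at the edge of the fold threshold, and the call was lost under 6 of 15 alternative settings, with changes from -0.58 to -0.52, those without cKO replicate 2 or WT replicate 2 (-0.58 in both) among them. The other Vegfb probe gave -0.45.

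Vegfa, the principal growth factor for blood endothelium, measured 1.97 and 1.97 in cKO and 2.35 and 2.37 in WT. Its change was -0.39 (SE 0.023, adjusted p = 0.0024), or 1.31-fold and not called. The other 3 Vegfa probes gave -0.36, -0.61 and -0.75, the last being the dimmest, so every probe was lower in cKO. Figf, the factor now named Vegfd, was at -0.49 (SE 0.038, adjusted p = 0.0036), with 1.90 and 1.87 in cKO and 2.34 and 2.42 in WT. Vegfc, the main lymphatic growth factor, was at -0.36 (SE 0.046, adjusted p = 0.0096), with -0.10 and 0.009 in cKO and 0.32 and 0.31 in WT.

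Of the angiopoietins, Angpt2, an antagonist or partial agonist of Tek released by activated endothelium, was at -0.15 (adjusted p = 0.064), and its WT duplicates differed by 0.10 where the pools were 0.091 apart. Angpt1, the Tek agonist made by mural and mesenchymal cells, was not well above background. Its brighter probe had processed signals of 29.4 and 32.5 in cKO and 39.4 and 26.5 in WT and was well above background on 1 cKO array.

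The neuropilins, which present vascular growth factors and semaphorins to their receptors, did not move alike. Nrp2 measured 3.24 and 3.21 in cKO and 2.67 and 2.75 in WT, the largest value on the higher side among the vessel genes. Its change was 0.51 (SE 0.039, adjusted p = 0.0035), or 1.43-fold. It was not called, but passed the fold threshold with quantile normalization (0.60) and with normexp background correction followed by quantile normalization (0.61). Nrp2 is also made outside vessels, among others by nerves and epithelium.

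Nrp1 gave no single answer. Its brightest probe had -2.25 and -2.21 in cKO and -2.33 and -2.07 in WT, overlapping pools and a change of -0.03 (SE 0.10, adjusted p = 0.84). The middle probe gave -0.34 and the 5′ probe -0.69, with both cKO arrays below both WT arrays in each. The 5′ probe is named by a cDNA clone.

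**Figure D2:**
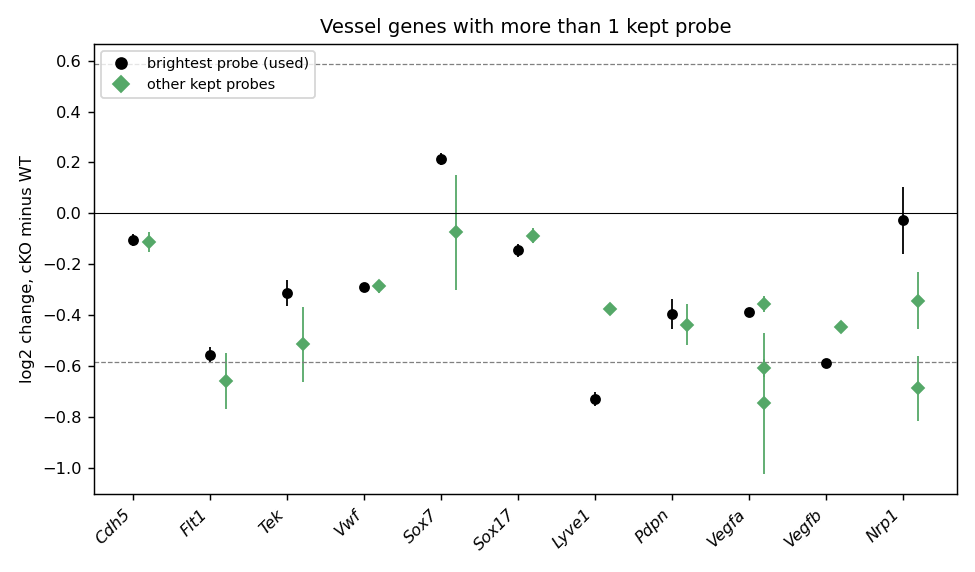
Log2 change (cKO minus WT, vertical axis) for each kept probe of the 11 vessel genes with more than 1; black circles are the brightest probes, green diamonds the others, bars the pooled SD between duplicate arrays, and dashed lines 1.5-fold. All 14 further probes lie below 0, and Lyve1, Nrp1 and Vegfa show the widest spread between probes.

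Probe position was checked because polyA RNA was labelled. Over 6070 genes with at least 2 kept probes, the probe nearest the 5′ end changed by -0.05 more (median, log2 units) than the one nearest the 3′ end, with quartiles of -0.23 and 0.08. Over the 11 such vessel genes the median was -0.01. The difference was -0.66 for Nrp1 and -0.36 for Vegfa, and 0.35 for Lyve1.

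The wider set of vessel genes was read from 5 further lists, on which 80 genes were measured. Of these, 6 were called lower and 6 higher, or 7.5% each against 4.81% and 5.68% of all genes tested, and the median was -0.18. Among the 6 higher, Adamts3 was well above background on neither WT array and passed the filter through cKO alone. Each single list is too short for its count to be read against those shares. In the list of other endothelial genes 3 of 34 fell and none rose, with a median of -0.13. Cd93, a C-type lectin-like receptor of endothelium, fell 1.72-fold (log2 -0.78, adjusted p = 0.0020) and its other probe gave -0.53. Calcrl, the adrenomedullin receptor subunit, fell by 0.69 on the log2 scale and Thbd, thrombomodulin, by 0.62. The Thbd call was lost with quantile normalization, with normexp and quantile normalization and with scaling on detected probes, at -0.58 in each.

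The venous and adhesion list held 2 falls among 9 genes, and a median of -0.32. Nr2f2, the factor that sets venous identity and is also found in mesenchyme, fell 1.66-fold (log2 -0.73, adjusted p = 0.0023), with -0.76 from a further probe. Vcam1, a leukocyte adhesion molecule, fell by 0.59 on the log2 scale, a call lost under 5 settings, without cKO replicate 1 (-0.56) and without WT replicate 1 (-0.57) among them, and not shared by its other probe (-0.12).

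Arterial and sprouting genes were spread to both sides. Of 13 measured, 3 rose and 1 fell, 6 lay below 0 and 7 above, and the median was 0.04. The adjusted p was under 0.05 for 5 that were lower and 5 that were higher. Of all genes tested, 33.6% were lower and 22.2% higher at that threshold, and 57% lay below 0. The difference of this list from the other lists was not tested. Gja5, a gap junction protein of arterial endothelium, rose 3.31-fold (log2 1.73, SE 0.094, adjusted p = 0.0022), from -3.57 and -3.74 in WT to -2.01 and -1.85 in cKO. Unc5b, a netrin receptor, rose 2.25-fold (log2 1.17, adjusted p = 0.0016). Cxcr4, the receptor of Cxcl12, rose by 0.67 on the log2 scale, and its other probe gave 0.37. The call was lost under 6 settings, which include leaving out cKO replicate 1 (0.64), cKO replicate 2 (0.69) or WT replicate 1 (0.51). Esm1, a proteoglycan of sprouting tip cells, fell 1.60-fold (log2 -0.68, adjusted p = 0.0037). With normexp and quantile normalization it was at -0.45 and not called. Among genes not called, Acvrl1, a receptor of the TGF-beta family, was at -0.49, the Notch ligand Dll4 at -0.27 and Notch1 at 0.33; these 3 were picked after their values were seen. Gja5, Unc5b and Cxcr4 are also made by other cells of skin.

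Among other lymphatic genes none of 10 fell and 2 rose, with a median of -0.21. Those that rose were Tbx1 (1.70-fold), which is also a hair follicle stem cell factor, and Adamts3, a protease that processes Vegfc. In WT the Adamts3 probe was well above background on neither array. Its fitted log2 change was 1.19 (adjusted p = 0.0089), and as a bound in the main setting Adamts3 was at least 1.72-fold higher. With normexp and quantile normalization it was not called, at 0.49. Among 14 other angiogenic regulators 1 rose, Angptl4, a lipase inhibitor with effects on vessels (3.87-fold, log2 1.95, adjusted p = 0.00029), and none fell, with a median of -0.16.

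**Figure D3:**
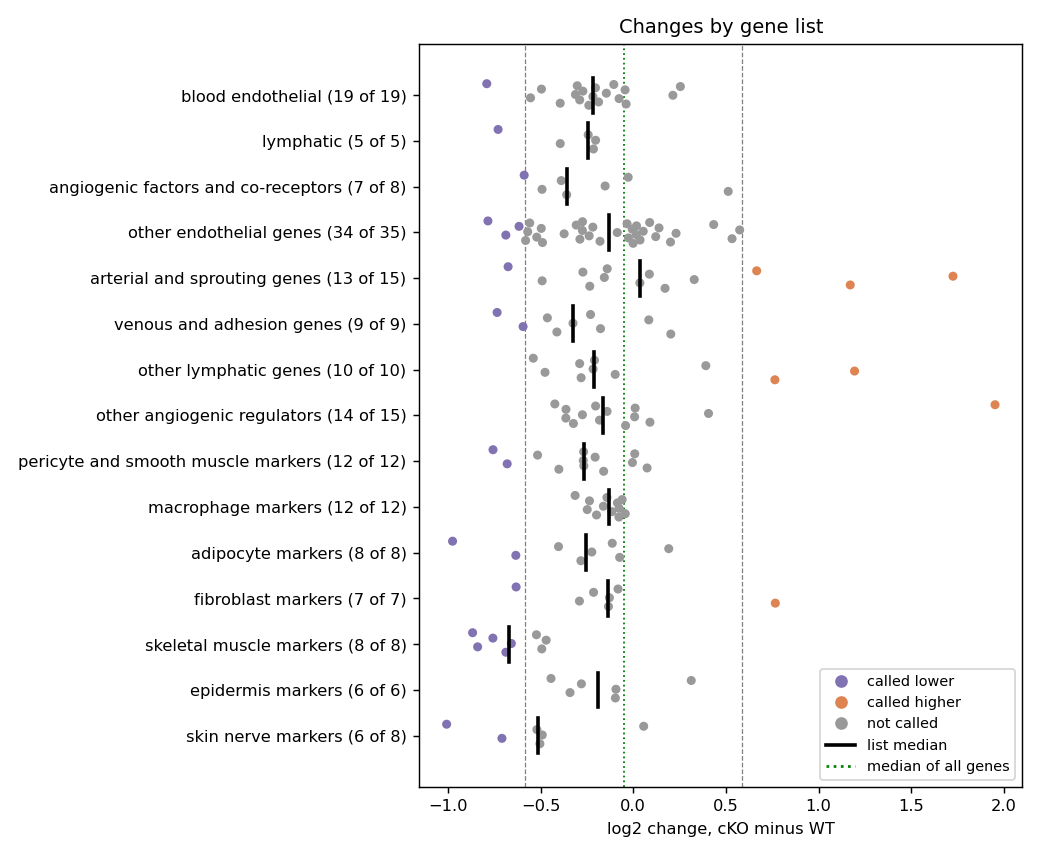
Log2 change (cKO minus WT, horizontal axis) of every measured gene in the 3 vessel lists, the 5 further vessel lists and 7 lists of other cell types, with the number measured of the number listed; black bars are list medians, the dotted line the median of all genes (-0.05), and dashed lines 1.5-fold. The lists of hair shaft and red cell markers are not drawn. The blood endothelial (-0.22), lymphatic (-0.24) and angiogenic factor (-0.36) medians lie left of the dotted line, and the arterial and sprouting list (0.04) lies right of it.

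Other cell types of the skin moved beside the vessel genes. Of all genes tested, 4.81% were called lower and 5.68% higher. The lists below are short, and their counts were not tested against those shares. Pericyte and smooth muscle markers, which include mural cells of vessels, had a median of -0.27 over 12 genes with 2 called lower, and their summed scaled signal was 102 to 105 in cKO and 144 to 148 in WT. The largest change in that list, Acta2 at -0.76, was not shared by its other probes, which gave -0.05 to 0.02. The other called gene of the list was Des, at -0.68. Without Acta2, a choice made after seeing the data, the sums were 54.0 to 55.7 in cKO and 63.3 to 64.9 in WT, or 85.6% of WT in place of 70.8%. Adipocyte markers had a median of -0.25 with 2 of 8 called lower and sums of 247 and 247 in cKO against 242 and 243 in WT. Those sums mostly follow Fabp4, by far the brightest gene of that list and the only one above 0, at 0.19. Its scaled log2 signals were 7.11 and 7.11 in cKO and 6.93 and 6.91 in WT. Skeletal muscle markers were at -0.67 with 5 of 8 called lower, and sums of 626 to 627 against 889 to 928. Skin nerve markers were at -0.51 with 2 of 6 called lower, and sums of 8.11 to 8.26 against 12.2 to 12.3. Fibroblast markers were at -0.13 with 1 of 7 called lower (Lum) and 1 higher (Dpt), and epidermis markers at -0.19 with none of 6 called. Their sums were 88.7% and 88.9% of WT. For comparison, the summed scaled signal of the 19 blood endothelial genes was 45.6 to 46.3 in cKO and 52.9 to 54.0 in WT, or 85.9% of WT, and that of the lymphatic genes was 74.2% of WT. Without Lyve1, left out after seeing the data, the other 4 lymphatic genes were at 85.4% of WT. The part of these cell types in the vessel results was not tested.

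Red cell markers, which could come with blood in the vessels, were also read. Of 4 measured, Ahsp and Slc4a1 were at least 6.39-fold and 5.34-fold higher in cKO. Their WT signals were not well above background, so both passed the filter through cKO alone. The others, Hba-a1 (-0.11) and Alas2 (-0.22), were not called, and in each both cKO arrays lay below both WT arrays (48.1% of all genes tested). The summed scaled signal of the list was 96.1% of WT. That sum mostly follows Hba-a1, by far the brightest of the 4, with 2.81 and 2.80 in cKO and 2.90 and 2.94 in WT.

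Promoters of the called genes were read beside those of Nrp1 and Egfl7, the 2 vessel genes with the smallest change by their brightest probe. The other Nrp1 probes gave -0.34 and -0.69, and the mean of its probes -0.35. RefSeq's table on GRCm38.p6 held 25 promoters for 19 of the 32 genes. Lyve1 was not among them. In the 250 bases before each start, 4 short motifs were searched on both strands: GGAAGT, bound by ETS factors such as Erg, ACAAAG and AACAAT, bound by SOX factors, and AGATAA, bound by GATA factors. Capitals mark a match, and where ACTTCC is in capitals it is GGAAGT on the other strand.
Emcn, chr3:137340828-137341077, plus strand: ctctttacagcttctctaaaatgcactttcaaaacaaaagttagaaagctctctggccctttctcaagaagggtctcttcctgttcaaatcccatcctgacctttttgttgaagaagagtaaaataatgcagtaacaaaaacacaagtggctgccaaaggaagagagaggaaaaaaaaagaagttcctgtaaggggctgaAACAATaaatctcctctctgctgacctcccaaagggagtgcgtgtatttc
Vegfb, chr19:6987652-6987901, minus strand: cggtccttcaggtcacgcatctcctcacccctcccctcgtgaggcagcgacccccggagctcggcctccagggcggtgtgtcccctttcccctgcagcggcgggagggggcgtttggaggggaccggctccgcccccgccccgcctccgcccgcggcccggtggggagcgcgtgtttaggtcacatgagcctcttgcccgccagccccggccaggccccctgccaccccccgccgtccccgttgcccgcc
Nrp1, chr8:128358823-128359072, plus strand: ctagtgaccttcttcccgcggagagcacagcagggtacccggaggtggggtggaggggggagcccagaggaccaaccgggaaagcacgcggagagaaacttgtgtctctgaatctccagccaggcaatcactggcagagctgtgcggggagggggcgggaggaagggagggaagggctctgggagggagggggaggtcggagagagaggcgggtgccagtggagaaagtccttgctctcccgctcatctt
Egfl7, chr2:26580833-26581082, plus strand: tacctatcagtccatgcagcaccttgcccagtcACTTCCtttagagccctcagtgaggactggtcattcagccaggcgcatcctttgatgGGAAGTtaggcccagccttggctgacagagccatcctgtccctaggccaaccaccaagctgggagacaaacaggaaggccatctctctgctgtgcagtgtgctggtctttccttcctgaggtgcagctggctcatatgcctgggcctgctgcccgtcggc

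The Emcn promoter held AACAAT at 50 bases before the start, and those of Vegfb and Nrp1 held none of the 4 motifs. The Egfl7 promoter shown held GGAAGT at 217 and 160 bases before the start; 2 further starts of Egfl7 are listed and not printed. GGAAGT was in 8 of the 25 promoters of vessel genes (Egfl7, Eng, Figf, Flt1, Kdr, Mmrn1 and Tie1) and in 19.7% of all 32851 promoters. ACAAAG was in 5 of 25 against 16.5% of all, AACAAT in 4 against 9.42%, and AGATAA in 3 against 9.99%. These matches describe letters only.

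**Figure D4:**
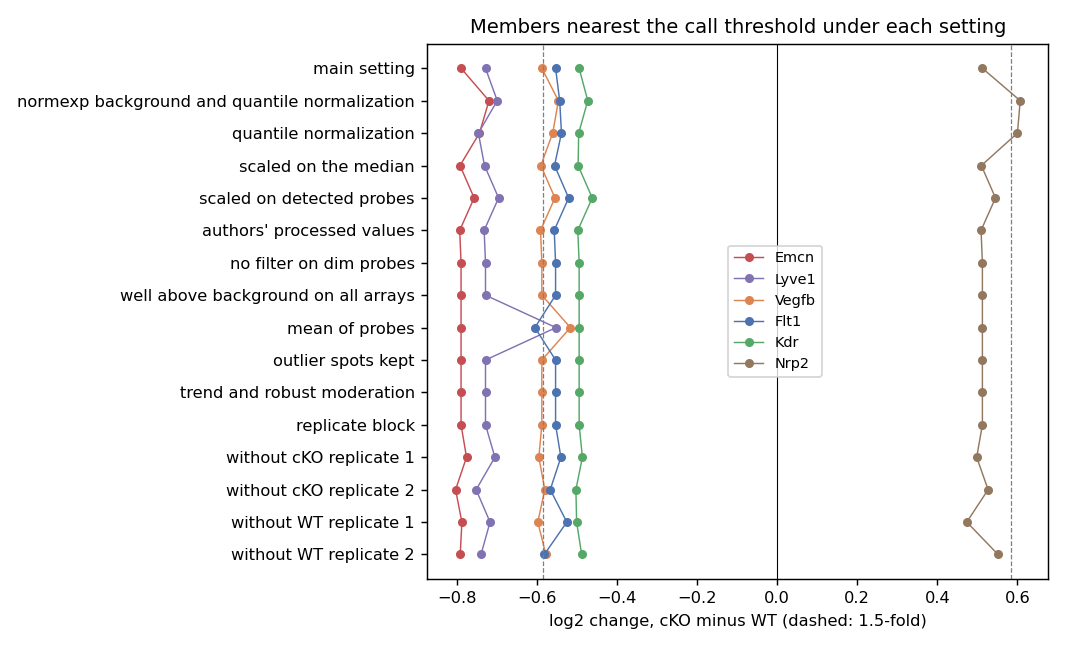
Log2 change (cKO minus WT, horizontal axis) of the 6 vessel genes nearest or past the 1.5-fold threshold (dashed) under the main setting and 15 alternatives (vertical axis). Emcn stays between -0.80 and -0.72, Lyve1 crosses the line with the mean of its probes, and Vegfb lies on the line.

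Of the 3 called vessel genes, Emcn kept its call under all 15 alternatives, Lyve1 lost it with the mean of probes and Vegfb lost it under 6. Kdr stayed between -0.50 and -0.46 and Vegfa between -0.52 and -0.32 under the same settings.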

How the data were processed

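The 4 one-colour arrays (2 of the cKO pool, 2 of the WT pool) were read with Feature Extraction 10.7.3.1 from Agilent, with spatial and multiplicative detrending on and background correction off, per the file headers. The deposited processed intensity was the starting value. Labelling used 200 ng RNA and Cy3, per the labels' protocols. The values in the deposited series matrix were a ratio, the processed intensity divided by a constant per array, not centred per gene (column medians 0.101, 0.0983, 0.0987 and 0.101).

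Here the log2 of the deposited intensity was scaled to each array's 75th percentile. Control spots were left out, flagged spots set to missing and a probe's spots averaged. A probe was kept when both arrays of a pool read it well above background, and the brightest kept probe stood for a gene. RefSeq (GRCm38.p6) names were given to 26690 of 41174 probes through their accession, to 5189 through the symbol and to 952 through an older one. Pools were tested against each other with limma 3.58.1 (R 4.3.3), two-sided, with Benjamini-Hochberg adjustment over 17550 genes. A call needed an adjusted p under 0.05 and 1.5-fold, and only called genes are said to have risen or fallen. For a gene below background in WT, the bound sets the cKO mean against the WT mean of, per array, its own signal or the dimmest signal accepted as above background, whichever was higher. The fit was also run on simulated data whose noise came from the spread between duplicate arrays. That run does not cover differences between mice. Slide and scan time were shared by all arrays.

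The members and lists were chosen with earlier results of these data known. Every measured member is named, and from the 5 further vessel lists up to 4 called genes with the largest change. Genes of the cell type lists are named only in part. Alternatives changed the background correction, scaling, filters, probe summary or moderation, added a replicate block, or dropped 1 array. The number of arrays limits the precision. Data handling used data.table (version 1.17.8), Python 3.11.15, pandas 2.3.3 and matplotlib 3.10.9.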

Additional observations from a re-analysis of the deposited data

How the results depend on the processing

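Each value was recomputed under 15 alternatives. Over single vessel genes, 449 recomputed changes kept their direction and their side of the call, 7 lost the call, 3 gained one and 6 changed sign. Some of these outcomes were fixed in advance, so 449 overstates how freely the values could have moved. Changed moderation and the replicate block cannot alter a log2 change. Requiring a probe well above background on all 4 arrays kept the same probes for the vessel genes. The deposited ratios differ from the processed intensity only by a constant per array. Vegfb lost its call with normexp and quantile normalization (-0.55), quantile normalization (-0.56), scaling on detected probes (-0.56), the mean of probes (-0.52) and without cKO replicate 2 or WT replicate 2 (-0.58 in both), and Lyve1 with the mean of probes (-0.55). With normexp and quantile normalization Egfl7 was at 0.076 and Flt4 at 0.044, and with quantile normalization Egfl7 was at 0.099. Nrp1 was at 0.0055 with scaling on detected probes. Leaving out single arrays gave -0.49 to 0.0068 for Prox1 and -0.16 to 0.10 for Nrp1. The blood endothelial median (-0.22) was -0.19 with normexp and quantile normalization and -0.18 with scaling on detected probes. The angiogenic factor median (-0.36) was -0.32 with quantile normalization and -0.28 with no filter on dim probes. Leaving out single arrays gave -0.22 to -0.21 for the blood endothelial, -0.41 to -0.17 for the lymphatic and -0.39 to -0.31 for the angiogenic factor median. The cause of these shifts was not tested. No vessel gene was called higher in the main setting, and 1 (Nrp2) was with either quantile setting. Over all genes 844 were called lower, and 478 with normexp and quantile normalization. Without the filter on dim probes the median of all genes moved by -0.11. Same-numbered arrays did not deviate together (correlation -0.043). With a replicate block 3 vessel genes and 826 of all genes were called lower.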
